A study of Mus musculus with 6 samples.

Results

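The markers described here are 10 genes that are used to read the state of hepatic stellate cells, and they were taken by gene symbol from the 24346 gene rows of the liver expression table. The quiescence markers were Lrat, Reln, Hgf and Des, the activation markers were Acta2, Tagln and Vim, the pericyte marker was Rgs5, and the matrix cross-linking enzymes were Lox and Loxl1. They were chosen for their known roles, with earlier results of these data known. RNA from whole livers of 6 male C57BL/6 mice was sequenced, with 3 control and 3 lipophagy-induced livers. All mice were 8 weeks old when feeding of CDAHFD was started, a high-fat diet that lacks choline and gives its protein as L-amino acids and that models nonalcoholic steatohepatitis. After 6 weeks of CDAHFD each mouse received adeno-associated virus of serotype 8 with a thyroxine-binding globulin promoter, and was then kept on normal chow for 2 weeks. In control mice the virus encoded LDTS-LIR mut, a lipid droplet-targeting sequence (LDTS) of perilipin 1 joined to a mutated LC3-interacting region (LIR). In lipophagy-induced mice it encoded LDTS-eLIR, in which an engineered LIR of optineurin recruits the autophagosome to the droplet. Both groups thus carried the droplet-targeting part, and the promoter drives the transgene in hepatocytes, so that stellate cells were not its target. The comparison asks how markers of these cells stood in a liver whose hepatocytes carried an active adapter.

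Stellate cells lie between hepatocytes and sinusoidal endothelium. In their quiescent state they store vitamin A as retinyl ester in lipid droplets and release growth factors. During liver injury they lose these droplets, build contractile actin filaments and lay down and cross-link matrix, and the balance of both sets of genes is widely used to follow this transition. Stellate cells are a small part of the liver, and Vim is also made by macrophages, endothelium and portal fibroblasts. In RNA of whole liver, fewer cells of a type and less RNA per cell cannot be told apart.

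Values are FPKM, fragments per kilobase of transcript relative to all mapped fragments, a per-length scale on which levels of different genes can be compared. The sum of FPKM was 622696 to 681138 in control livers and 709993 to 782392 in lipophagy-induced livers, and the estimated depth was 23.7 to 33.8 M fragments in control and 22.8 to 24.7 M fragments in lipophagy-induced livers. Differences are given on the log2(FPKM + 1) scale as lipophagy-induced minus control, which understates the change of low genes. They were tested with limma over the 11493 genes whose mean over the livers reached 0.5 FPKM, and adjusted by Benjamini-Hochberg over all of them. Of the 10 markers 9 were tested, and Lox was below the filter. Over all tested genes the median difference was 0.02, and 45.5% of genes had a lower mean in lipophagy-induced livers. An adjusted p below 0.05 was reached by 0.0261% of tested genes and by 0 of the 9 markers. At an unadjusted p below 0.05, 7.97% of tested genes were lower and 11.5% were higher. Of the 9 markers 5 were lower and 0 were higher at that unadjusted level. All 3 lipophagy-induced livers lay below all 3 control livers for 10.8% of tested genes and above them for 15.4%. Of the 9 tested markers 5 lay below in this sense, namely Acta2, Tagln, Vim, Rgs5 and Loxl1, and so did Lox.

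Promoter sequence is given as a description, and its part in the differences between groups was not tested. RefSeq windows of GRCm38.p6, which run from 250 bases before to 50 bases after an annotated start, were used for 7 of the 10 markers. No window was used for Tagln, Lox and Loxl1. Among markers whose upstream 250 bases lie outside annotated exons, Lrat and Rgs5 are shown as examples. Lrat had a higher mean, and Rgs5 separated the groups. The motif CATTCC is in capitals. The window of Lrat lies at chr3:82903975-82904224 on the minus strand and that of Rgs5 at chr1:169655251-169655500 on the plus strand.
Lrat: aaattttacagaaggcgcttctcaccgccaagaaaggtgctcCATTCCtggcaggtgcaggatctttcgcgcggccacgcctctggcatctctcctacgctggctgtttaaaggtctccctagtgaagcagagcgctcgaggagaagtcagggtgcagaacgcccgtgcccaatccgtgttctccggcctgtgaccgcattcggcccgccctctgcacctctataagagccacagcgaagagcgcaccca
Rgs5: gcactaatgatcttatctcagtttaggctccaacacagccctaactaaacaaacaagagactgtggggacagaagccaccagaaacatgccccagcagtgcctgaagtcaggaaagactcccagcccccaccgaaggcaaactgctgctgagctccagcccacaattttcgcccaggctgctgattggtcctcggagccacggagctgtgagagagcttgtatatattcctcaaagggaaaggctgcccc
The upstream parts of Acta2 and Vim lie within or largely within exons of longer annotated transcripts and are not printed. Motifs were searched on both strands. CATTCC, the MCAT element of muscle genes, was found in Lrat at -208 and on the reverse strand in Acta2 at -146, against 14.7% of 32851 windows. TATAAA was found in Vim at -32, against 13.6% of windows. The CArG box, the binding site of serum response factor in its strict form, was present in 1.63% of windows and in 0 of the 8 windows of the markers. Near matches that differ from the strict form by 1 letter were not counted. The window of Acta2 holds such near matches, and their share over all windows was not computed. TGANTCA, an AP-1 site, was present in 7.81% of windows and in 0 of those 8. GGGCGG, a GC box, was in 35.7% of windows and matched 6 times in Reln, 2 times in Lrat and 2 times in Des. CANNTG, an E-box, was in 72.3% of windows and matched in Lrat, Reln, Hgf, Des, Rgs5 and Acta2. A match describes letters in these windows, and a missing match says nothing of the factor.

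The 3 activation markers had lower means in lipophagy-induced livers, without overlap between the groups and without passing the adjusted threshold. These means were 58.9%, 72.9% and 76.0% of the control mean for Acta2, Tagln and Vim. Acta2 encodes α-smooth muscle actin, the contractile actin by which activated stellate cells are recognised. It stood at 0.831, 1.23 and 1.06 FPKM in the control livers and at 0.763, 0.629 and 0.449 FPKM in the lipophagy-induced livers. The groups did not overlap, but control liver 1 and lipophagy-induced liver 1 lay close together. The means were 1.04 ± 0.201 and 0.614 ± 0.158 FPKM (SD, n = 3 each), a difference of -0.34 (SE 0.11, 95% interval -0.59 to -0.09, unadjusted p = 0.0135, adjusted p = 0.181, limma). Without control liver 2 the unadjusted p of Acta2 was 0.0527, and with quantile normalization it was 0.0553. These levels correspond to an estimated 14.2 to 46.0 fragments a liver for a transcript of 1430 bases, so counting error is part of their spread. Acta2 is also a gene whose protein the study chose to follow in this model, so it is not an independent choice.

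Tagln encodes transgelin, an actin-binding protein of smooth muscle and of activated stellate cells. It was measured at 8.25, 8.19 and 10.3 FPKM in control and at 7.0, 5.91 and 6.56 FPKM in lipophagy-induced livers. Every lipophagy-induced liver was below the lowest control liver. The means were 8.90 ± 1.18 and 6.49 ± 0.548 FPKM, a difference of -0.40 (SE 0.11, 95% interval -0.64 to -0.15, unadjusted p = 0.00553, adjusted p = 0.148, limma). With 112 to 289 estimated fragments, Tagln was better covered than Acta2.

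Vim encodes vimentin, an intermediate filament protein of mesenchymal cells, and it was the most abundant of the 10 markers in both groups. Its level was 33.8, 35.3 and 42.7 FPKM in control and 23.9, 30.6 and 30.6 FPKM in lipophagy-induced livers. The groups were again apart, with lipophagy-induced liver 1 the lowest of the 6. The difference was -0.38 (SE 0.13, 95% interval -0.68 to -0.09, unadjusted p = 0.0159, adjusted p = 0.186, limma), on 919 to 2346 estimated fragments a liver. Without control liver 3 the unadjusted p of Vim was 0.063 and its difference -0.29.

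**Figure D1:**
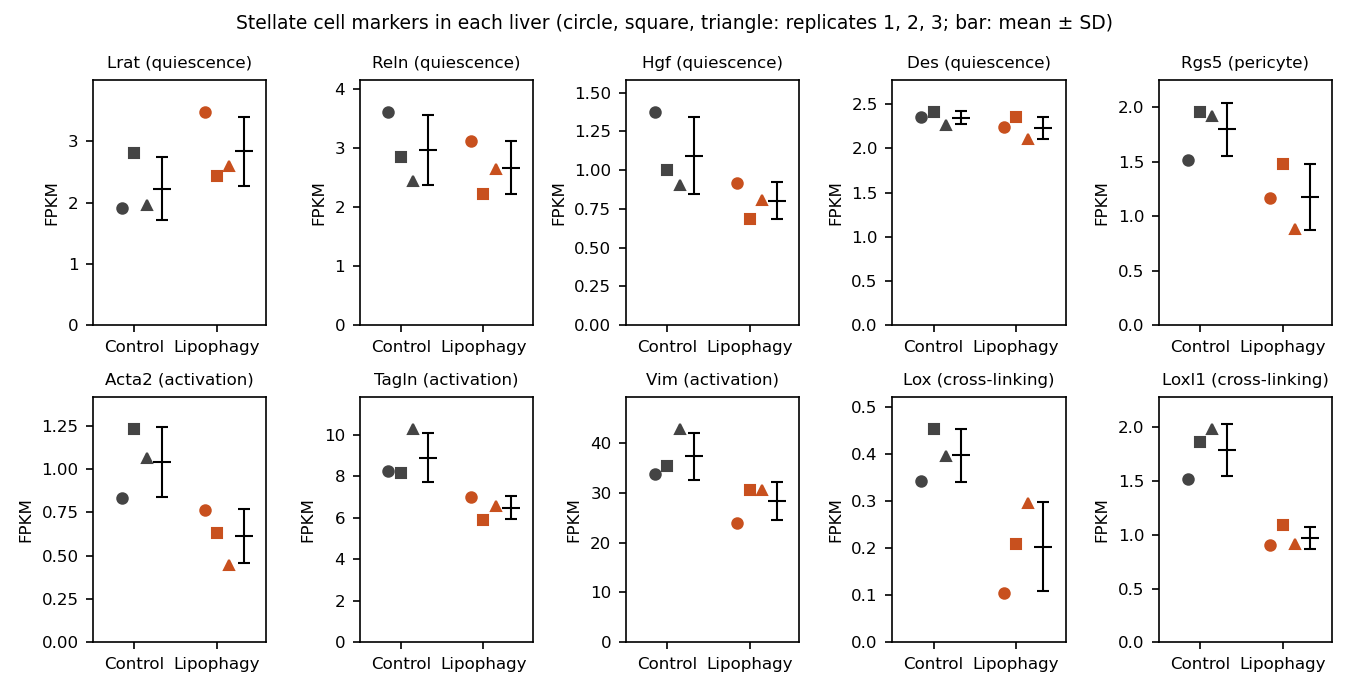
FPKM (vertical axis, from 0) of each of the 10 markers in the 3 control and 3 lipophagy-induced livers, with a circle, square and triangle for livers 1, 2 and 3 and a bar for mean ± SD. Acta2, Tagln, Vim, Rgs5, Lox and Loxl1 are separated between the groups, whereas Lrat, Reln, Hgf and Des overlap.

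The quiescence markers overlapped between the groups, and their differences took both signs. Lrat encodes lecithin retinol acyltransferase, which makes the retinyl ester that quiescent stellate cells store. It was measured at 1.91, 2.82 and 1.95 FPKM in control and at 3.48, 2.44 and 2.60 FPKM in lipophagy-induced livers. Lipophagy-induced liver 1 lay above every control liver, and the other two lay below control liver 2. The mean was 2.23 ± 0.509 against 2.84 ± 0.561 FPKM, a difference of 0.25 (SE 0.14, 95% interval -0.07 to 0.58, adjusted p = 0.351, limma). It was 0.13 without lipophagy-induced liver 1, and 0.38 without control liver 2 (unadjusted p = 0.0241, adjusted p = 0.327, limma). Lrat was the tested marker with a higher mean, and the other 8 had a lower one.

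Des encodes desmin, a muscle-type intermediate filament protein that rodent stellate cells contain in the quiescent and in the activated state. Its values were 2.36, 2.41 and 2.27 FPKM in control and 2.24, 2.35 and 2.11 FPKM in lipophagy-induced livers. These were the most even values of the 10 markers, and the mean was 95.2% of control. The difference was -0.05 (SE 0.08, 95% interval -0.22 to 0.12, adjusted p = 0.734, limma).

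Reln encodes reelin, a large secreted glycoprotein that stellate cells release in the liver. It was at 3.61, 2.85 and 2.45 FPKM in control and at 3.12, 2.23 and 2.65 FPKM in lipophagy-induced livers. The ranges largely coincided, and the difference was -0.11 (SE 0.13, 95% interval -0.42 to 0.19, adjusted p = 0.660, limma). Its sign rested on control liver 1, the highest of the 6, since the difference without that liver was 0.0024.

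Hgf encodes hepatocyte growth factor, which stellate cells secrete and which acts on hepatocytes through the receptor Met. Its values were 1.37, 0.998 and 0.903 FPKM in control and 0.920, 0.682 and 0.807 FPKM in lipophagy-induced livers. The lipophagy-induced livers were lower on average, at 73.5% of the control mean, but liver 1 of that group lay above control liver 3. The difference was -0.21 (SE 0.10, 95% interval -0.45 to 0.03, unadjusted p = 0.0803, adjusted p = 0.305, limma). Without control liver 1, the highest of the 6, it was -0.12, and without control liver 3 it was -0.27 (unadjusted p = 0.0475, adjusted p = 0.380, limma). The intervals of all 4 quiescence markers include 0, which does not show that they were equal between groups.

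Rgs5, a GTPase-activating protein that dampens G protein signalling in pericytes and stellate cells, stood with the lower markers. It was at 1.51, 1.96 and 1.92 FPKM in control and at 1.17, 1.48 and 0.879 FPKM in lipophagy-induced livers. Control liver 1 and lipophagy-induced liver 2 were the closest livers of the groups. The difference was -0.37 (SE 0.12, 95% interval -0.64 to -0.09, unadjusted p = 0.0154, adjusted p = 0.186, limma), and the mean was 65.5% of control. The unadjusted p of Rgs5 was 0.0527 without control liver 2 and 0.0510 without control liver 3.

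Lysyl oxidases oxidise lysines of collagen and elastin so that the fibres can be cross-linked. Loxl1, the family member linked to elastic fibres, had the largest difference among the tested markers as scaled by the authors, but not after quantile normalization (-0.42, against -0.51 for Vim). Its values were 1.51, 1.86 and 1.98 FPKM in control and 0.906, 1.09 and 0.918 FPKM in lipophagy-induced livers. The groups did not overlap, and the lipophagy-induced mean was 54.4% of control. The difference was -0.50 (SE 0.09, 95% interval -0.71 to -0.28, unadjusted p = 0.000649, adjusted p = 0.116, limma).

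Lox, the founding lysyl oxidase, was the lowest of the 10 markers, with a mean of 0.301 FPKM over the 6 livers, and it was not tested. It was at 0.342, 0.453 and 0.397 FPKM in control and at 0.106, 0.210 and 0.296 FPKM in lipophagy-induced livers. The groups did not overlap, and the mean was 51.3% of control. Between 11.2 and 59.8 fragments a liver were estimated to stand behind these values.

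**Figure D2:**
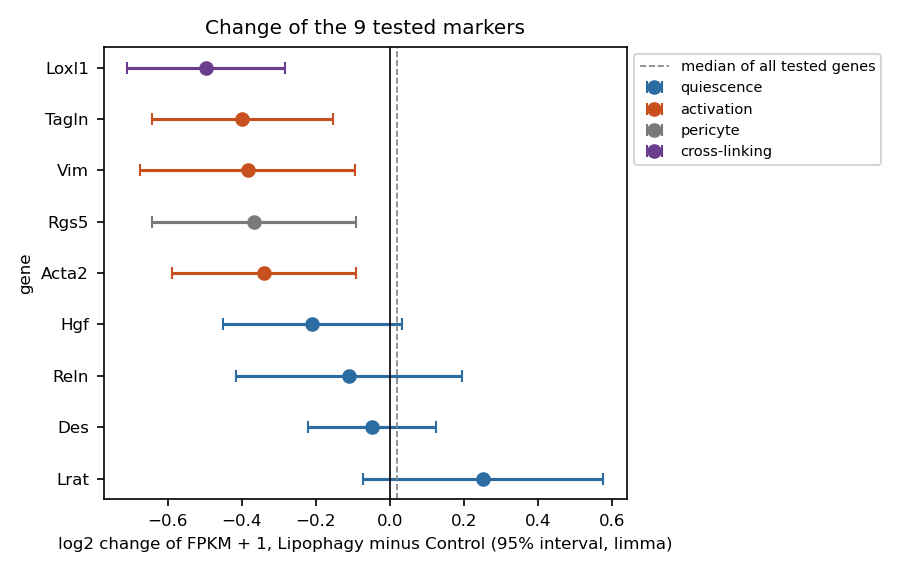
Difference in log2(FPKM + 1), lipophagy-induced minus control, of the 9 tested markers (horizontal axis), with points for the limma estimate and bars for its 95% interval, coloured by role. The dashed line at 0.02 is the median of all tested genes, and the intervals of Loxl1, Tagln, Vim, Rgs5 and Acta2 lie below 0 while those of Hgf, Reln, Des and Lrat cross it.

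On the FPKM scale the order of the markers changed in the middle of the range. In control livers the mean level descended in the order Vim, Tagln, Reln, Des, Lrat, Rgs5, Loxl1, Hgf, Acta2 and Lox. Neighbours from Des to Loxl1 overlapped in range, as did Hgf and Acta2, and the other neighbours were apart. In lipophagy-induced livers Lrat came after Vim and Tagln and above Reln, with which it overlapped, and Reln overlapped with Des. Rgs5, Loxl1, Hgf and Acta2 then followed, each overlapping with the next, and Lox was again last and apart from Acta2.

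The roles were then contrasted within each liver. The mean log2(FPKM + 1) of Acta2, Tagln and Vim was 3.07, 3.18 and 3.33 in control livers and 2.82, 2.82 and 2.81 in lipophagy-induced livers. The lipophagy-induced livers were nearly equal in this mean, although Acta2, Tagln and Vim each varied among them. The mean of Lrat, Reln, Hgf and Des was 1.69, 1.66 and 1.5 in control and 1.71, 1.49 and 1.55 in lipophagy-induced livers. Activation minus quiescence came to 1.38, 1.52 and 1.83 in control and 1.11, 1.33 and 1.26 in lipophagy-induced livers. The mean of this contrast was 1.58 ± 0.23 and 1.23 ± 0.11 (SD, n = 3 each), and no lipophagy-induced liver reached the lowest control liver. The difference between these means was -0.34, and -0.22 without control liver 3. This contrast is a description of markers chosen for it, and it was not tested.

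**Figure D3:**
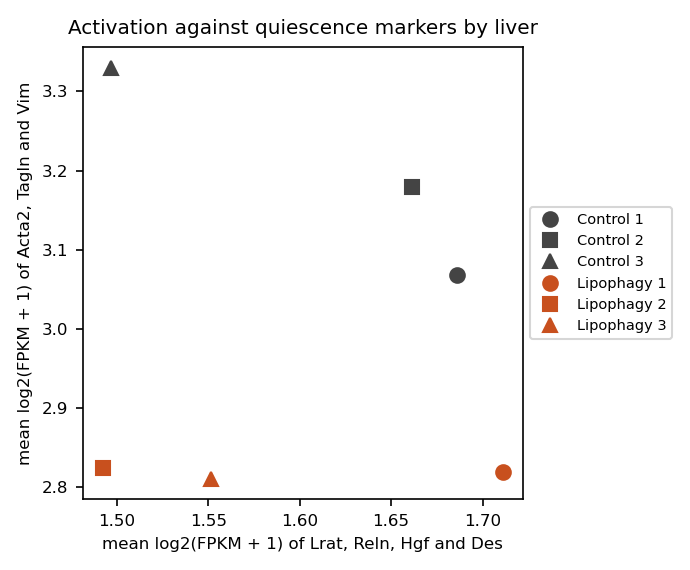
Mean log2(FPKM + 1) of Acta2, Tagln and Vim (vertical axis) against that of Lrat, Reln, Hgf and Des (horizontal axis), with each point 1 liver and axes that do not start at 0. The control livers lie at 3.07 to 3.33 on the activation axis and the lipophagy-induced livers at 2.81 to 2.82, while both groups span about the same range of the quiescence axis.

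Ratios of FPKM within a liver do not depend on its total. Acta2 over Lrat was 0.434, 0.437 and 0.545 in control and 0.219, 0.258 and 0.173 in lipophagy-induced livers. The mean ratio was 0.459 of its control value, and the groups were far apart relative to the spread in each. Acta2 over Des was 0.352, 0.510 and 0.470 in control and 0.340, 0.267 and 0.213 in lipophagy-induced livers. With desmin as reference the nearest livers of the groups thus almost met. Acta2 overlapped between the groups relative to Reln and to Hgf, with mean ratios of 0.635 and 0.765 of control. Loxl1 over Lrat was 0.791, 0.662 and 1.01 in control and 0.260, 0.447 and 0.354 in lipophagy-induced livers, also without overlap. Loxl1 was below control in all 3 livers relative to Des too, and it overlapped relative to Reln and to Hgf. Tagln was below control in all 3 livers relative to Lrat and to Des, whereas Vim overlapped relative to each of the 4 quiescence markers. Of the 12 ratios of an activation to a quiescence marker, 11 had a lower mean. The exception was the ratio of Vim to Hgf, at 1.01 of its control value. In 4 of the 12, all with Lrat or Des as reference, the groups did not overlap. The ratios reuse the same markers, so these counts follow largely from the values above. No share over other pairs of genes was taken. Among quiescence markers, Hgf over Reln was steady within groups, at 0.380, 0.351 and 0.369 in control and 0.295, 0.306 and 0.304 in lipophagy-induced livers.

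Related genes were read beside the markers, as counts and medians. Of 24 other tested stellate cell and pericyte genes, 16 had a lower mean, 10 were lower and 0 higher at an unadjusted p below 0.05, and the median difference was -0.15 against 0.02 over all tested genes. The median depended on single livers, at -0.04 without lipophagy-induced liver 2, -0.10 without control liver 1 and -0.23 without lipophagy-induced liver 1. Cygb, cytoglobin, a haem protein of stellate cells, was at 8.14 and 5.75 FPKM in control and lipophagy-induced livers (difference -0.43, adjusted p = 0.135, limma). Angptl6, a secreted angiopoietin-like factor, had the highest difference in this list, at 7.03 and 9.0 FPKM (0.30, adjusted p = 0.331, limma). Of 18 contractile and serum response factor genes 16 had a lower mean, and 5 were lower at the unadjusted level, with a median of -0.18. Tagln2, the relative of Tagln that many cell types contain, was at 39.3 and 26.8 FPKM (-0.51, adjusted p = 0.183, limma). Tpm2, a muscle tropomyosin, was at 1.93 and 2.24 FPKM (0.14, adjusted p = 0.597, limma). Acta2 and Tagln thus stood among related genes of which most had lower means.

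Beside Lox and Loxl1, 14 of 16 tested genes of lysyl oxidases and collagen cross-linking had a lower mean, with 7 lower and 0 higher at the unadjusted level and a median of -0.19. Eln, elastin, a substrate of Loxl1, had the lowest difference, at 2.23 and 1.03 FPKM (-0.66, adjusted p = 0.212, limma). Bmp1, the proteinase that trims procollagen, had the highest, at 19.4 and 21.3 FPKM (0.13, adjusted p = 0.345, limma). Beside Vim and Des, all 7 tested intermediate filament genes had a lower mean, from -0.53 in the bile duct keratin Krt19 to -0.11 in the hepatocyte keratin Krt18. In this list 1 gene was lower at the unadjusted level.

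Of the genes around Lrat, 17 were tested. Of these genes of retinoid handling 13 had a higher mean, and the median was 0.09, but 0.02 after quantile normalization. At the unadjusted level 2 were higher and 0 lower, a share of higher genes near the 11.5% of all tested genes. Cyp26a1, the enzyme that degrades retinoic acid, was at 11.8 and 19.3 FPKM (0.61, adjusted p = 0.248, limma), and Lpl, lipoprotein lipase, was at 40.6 and 32.8 FPKM (-0.31, adjusted p = 0.361, limma). Stra6, a retinol transporter, was listed at 0 in all 6 livers. Several abundant genes of this list are made by hepatocytes. Around Hgf, 10 of 13 genes of its activation and signalling had a lower mean, with 3 lower and 2 higher at the unadjusted level. Hgfac, a protease that activates the growth factor and is made by hepatocytes, was at 67.2 and 90.1 FPKM (0.41, adjusted p = 0.154, limma). St14, matriptase of epithelial cells, was at 1.17 and 0.502 FPKM (-0.55, adjusted p = 0.261, limma). Of 4 tested reelin signalling genes 3 had a higher mean and 0 passed the unadjusted level, from -0.10 in Fyn to 0.11 in Crkl.

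Around Rgs5, 5 of 7 tested RGS genes had a lower mean. Rgs3 was at 2.34 and 1.34 FPKM (-0.51, adjusted p = 0.125, limma). Rgs16, which hepatocytes make and whose level follows feeding and the time of day, was at 5.46 and 16.9 FPKM (1.45, adjusted p = 0.145, limma). Rgs5 and Rgs16 therefore differed in opposite directions. No gene of these lists reached an adjusted p below 0.05.

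**Figure D4:**
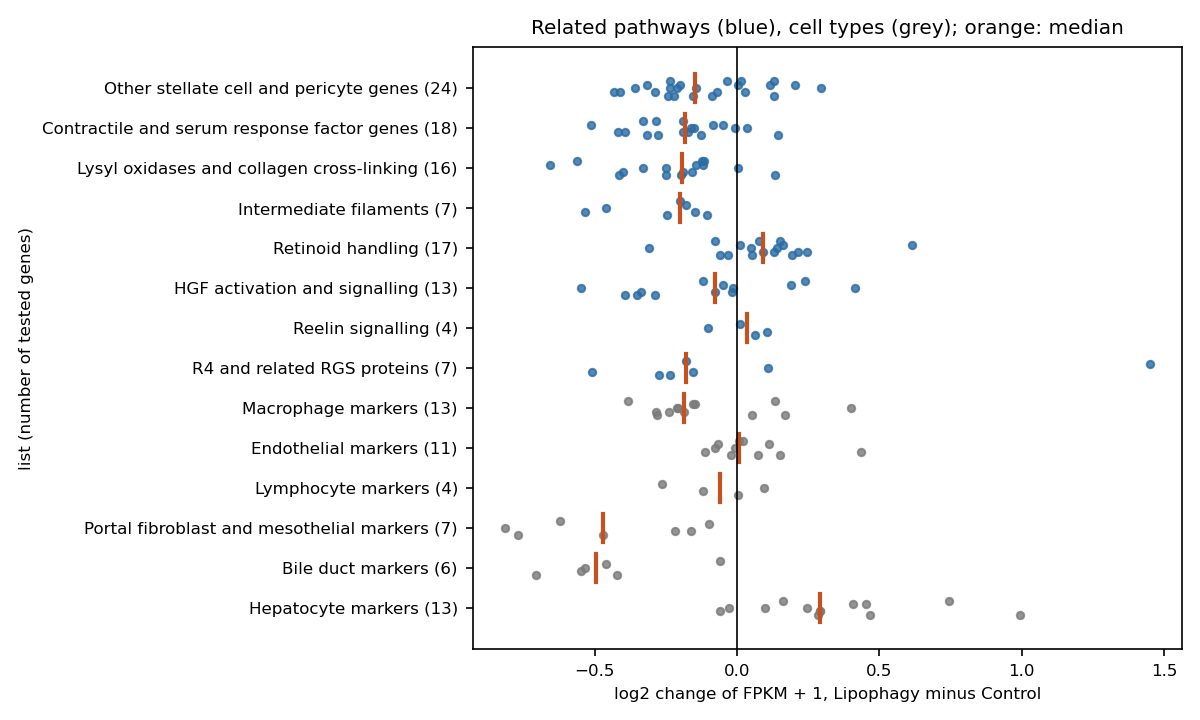
Difference in log2(FPKM + 1), lipophagy-induced minus control (horizontal axis), of each tested gene (points) in lists of related pathways in blue and of other cell types in grey, with the list median as an orange bar and the number of tested genes in brackets. The medians of the contractile, cross-linking and intermediate filament lists lie at -0.18 to -0.20 and those of retinoid handling and hepatocyte markers at 0.09 and 0.29.

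Markers of other cell types were read beside these results, and 0 of them had an adjusted p below 0.05 (limma). Of 7 tested portal fibroblast and mesothelial markers all had a lower mean, 4 were lower at the unadjusted level, and their summed level was 40.8 to 55.3 FPKM in control and 27.0 to 40.7 FPKM in lipophagy-induced livers. They ran from -0.82 in Dpt to -0.10 in Entpd2, with a median of -0.47, which was -0.16 without a filter on low values. Of 6 bile duct markers all had a lower mean and 0 passed the unadjusted level, from -0.71 in Spp1 to -0.06 in Sox9. Their summed level was 138 to 248 and 92.6 to 198 FPKM. Most of this sum was Spp1, with means of 198 FPKM in control and 124 FPKM in lipophagy-induced livers. Of 13 macrophage markers 9 had a lower mean, with 3 lower and 1 higher at the unadjusted level, from -0.38 in Cd68 to 0.40 in Vsig4, and their sums of 839 to 1093 and 819 to 985 FPKM overlapped. Of 11 endothelial markers 5 had a lower mean and 0 passed the unadjusted level, from -0.11 in Pecam1 to 0.43 in Clec4g, with sums of 35.9 to 43.5 and 40.0 to 58.5 FPKM. The 4 tested lymphocyte markers ran from -0.26 in Nkg7 to 0.09 in Cd79b, with 1 lower and 0 higher at the unadjusted level, with sums of 5.62 to 8.36 and 5.39 to 6.18 FPKM. Of 8 smooth muscle markers Smtn alone was tested (-0.19), Myocd, which encodes myocardin, a master regulator of smooth muscle genes, was listed at 0 in all livers, and the sum was 2.17 to 2.75 and 1.63 to 2.04 FPKM.

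Of 13 hepatocyte markers 11 had a higher mean and 7 were higher at the unadjusted level, with a median of 0.29. They ran from -0.06 in Apoa1 to 1.0 in Tat, and their sum was 61970 to 69455 FPKM in control and 75492 to 98564 FPKM in lipophagy-induced livers. The part of hepatocyte, portal fibroblast, smooth muscle, bile duct and macrophage RNA in the difference of Acta2, Tagln, Vim, Rgs5, Lox and Loxl1 was not tested. When all livers were given the same distribution of values by quantile normalization, the difference was -0.25 for Acta2, -0.42 for Tagln, -0.51 for Vim, -0.28 for Rgs5, -0.42 for Loxl1 and 0.30 for Lrat, and the median of the hepatocyte markers was 0.10. Rgs5 then had an unadjusted p of 0.0603.

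Genes outside the markers whose values followed Acta2 or Lrat most closely over the 6 livers are given as a description. Cgref1, Vopp1 and Jund followed Acta2 (Pearson r of 0.990, 0.988 and 0.984), and 36 genes had an r above 0.95. Gstk1, Alg12 and Mesdc2 followed Lrat (r of 0.990, 0.985 and 0.982), with 20 genes above 0.95. The 6 points share the group difference and the scaling of each library. Both counts were taken over the 11493 tested genes other than the markers, and the count expected by chance was not computed.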

How the data were processed

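Whole-liver poly(A) RNA of 3 control and 3 lipophagy-induced mice was sequenced in paired-end mode. The authors deposited FPKM values for 24346 gene rows, scaled to transcript length and to all mapped fragments. The submitters' processing notes name TopHat2 2.0.13, Bowtie2 2.2.3, SAMtools 0.1.19, Cufflinks 2.2.1 and mm10. No count model was applied to FPKM. Values were taken as log2(FPKM + 1), and the 11493 genes whose mean reached 0.5 FPKM were tested in R 4.3.3 with limma 3.58.1 (moderated variance with an intensity trend, no covariates, two-sided), with Benjamini-Hochberg adjustment at 0.05. The labels number the mice within groups, and each liver was taken as 1 replicate.

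Depth was estimated from the steps of low FPKM values and GENCODE transcript lengths less 150 bases, and between 70.8% and 78.2% of 344 to 409 low values lay within 4% of a whole fragment. Numbers of fragments are such estimates and cover counting error only. Exact permutation of 3 against 3 livers cannot go below p = 0.1, so it was not used. Motifs were searched as exact letters in RefSeq promoter windows.

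All 10 markers were named, and in each list the tested genes with the highest and the lowest difference. For Acta2 and Lrat the 3 genes with the highest Pearson r were named. The markers and lists were chosen with earlier results of these data known, so their counts are a description. As alternatives, the pseudocount was set to 0.1 or 0.5, the filter was dropped or set to 0.1 or 1 FPKM, livers were quantile-normalized, median-scaled or weighted by quality, the trend was dropped, the replicate number was added as a block, and each liver was left out. Plots were drawn in Python 3.11.15 with matplotlib 3.10.9.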

Additional observations from a re-analysis of the deposited data

How the results depend on the processing

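Of 152 marker results under the alternatives, 1 changed its sign. Of the 144 with an adjusted p (limma), 0 were below 0.05, and Lox had none in the other 8. The lowest adjusted p of a marker was 0.0550, for Loxl1 with quality weights. The exception in sign was Reln, whose difference ran from -0.21 to 0.0024 when each liver was left out, and was 0.0024 without control liver 1. The number of genes with an adjusted p below 0.05 was 3, and it was 1 with no filter, 39 with quality weights, and 1 to 11 with each liver left out. With the replicate number as a block it was 43, none of them a marker. Deviations of same-numbered livers correlated at 0.25, 0.23 and -0.06, so a pairing of the mice by number was not established. Of the 5 markers lower at an unadjusted p below 0.05, 3 remained with quantile normalization, with Acta2 and Rgs5 above it, and 3 to 5 with each liver left out. Without control liver 2, Acta2 and Rgs5 had an unadjusted p of 0.0527 each and Lrat, which was higher, one of 0.0241. Without control liver 3, Rgs5 had 0.0510, Vim 0.0630 and Hgf, which then made the count of lower markers 4, 0.0475. Over all genes, 602 to 943 were lower and 800 to 1609 higher at that level with each liver left out, against 916 and 1327 with all livers, and 745 were higher with quantile normalization. A pseudocount of 0.1 gave -0.69 for Acta2, -0.81 for Loxl1 and -0.76 for Lox. Acta2 and Hgf, and with them activation minus quiescence, had no value with a filter at 1 FPKM. List medians moved by more than the spread between livers with quantile normalization for contractile genes (-0.28), retinoid handling (0.02), macrophages (-0.34) and hepatocytes (0.10), with a filter of none or 0.1 FPKM for portal fibroblast markers (-0.16 and -0.21), with a pseudocount of 0.1 for cross-linking genes (-0.34), without control liver 1 or 3 for macrophages (-0.27 and -0.10), and without lipophagy-induced liver 3 for genes of Hgf signalling (-0.17). Precision is limited by 3 livers a group, and for Acta2, Hgf and Lox also by few fragments.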
